A study of Mus musculus with 4 samples.

Results

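The 10 genes described here encode the MYC-MAX-MXD network of transcription factors: *Myc*, *Mycn*, *Max*, *Mxd1*, *Mxi1*, *Mxd3*, *Mxd4*, *Mnt*, *Mga* and *Mlx*. They were chosen by name, with earlier results of these data known. Each was represented by 1 probe set of the array, so 10 of the 19938 genes with a probe set of their own were members. Transcripts were measured in Tc17 cells, CD8+ T cells that make IL-17, and in CTLs (cytotoxic T lymphocytes), by 2 arrays in each group, one for each biological replicate. Both groups came from spleen and lymph nodes of adult wild-type C57BL/6 mice and spent 2 days in culture with IL-2 while IFN-γ was blocked by an antibody. IL-6 and TGF-β were added to Tc17 cultures, so an effect of either cytokine cannot be told apart from that of the other. The labels call the starting cells naive but give only a magnetic negative selection, and they do not say whether animals were pooled or shared between groups.

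Proteins of this network bind DNA in pairs through a basic helix-loop-helix leucine zipper. MYC pairs with MAX at E-boxes, of which CACGTG is the canonical form, and activates genes of growth, ribosome production and nucleotide synthesis. MXD proteins and MNT compete for MAX, recruit the SIN3 corepressor to the same sites and are linked to exit from the cell cycle and to differentiation. MGA pairs with MAX inside the Polycomb complex PRC1.6, and MLX is a second hub that joins the glucose-responsive MLXIP and MLXIPL and some of the MXD proteins. In T cells *Myc* is induced by antigen receptor signals, sustained by IL-2 and needed for growth of the activated cell.

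The RMA values were read as log2, and the medians of the 4 arrays lay between 3.18 and 3.20. Across genes, the arrays of a group correlated at 0.993 (Tc17) and 0.993 (CTL), and arrays of different groups at 0.967 to 0.973; genes are not independent replicates. The labels held for the cytokine and granzyme genes that define the cultures. *Il17f* was at 8.96 ± 0.37 in Tc17 cells and 3.15 ± 0.29 in CTLs (log2, mean ± SD, n = 2 each), *Il17a* at 6.31 ± 0.14 and 3.92 ± 0.25, *Ifng* at 6.07 ± 0.23 and 10.33 ± 0.34, and *Gzmb* at 9.25 ± 0.08 and 11.57 ± 0.01. Of 6 CD8 T cell markers with a probe set, 4 (*Cd8a*, *Cd3d*, *Cd3e* and *Cd3g*) rose in Tc17 cells by 0.67 to 1.00, beside 8.22% of all genes tested. The 2 that did not pass were *Cd8b1* (0.20) and *Cd247* (-0.15, lower in Tc17 cells without overlap). The mean log2 level over the 6 was 8.87 and 8.95 on the Tc17 arrays and 8.33 and 8.38 on the CTL arrays. Among markers of other cells, *Cd68* (Tc17 5.32 and 4.89, CTL 4.28 and 3.91) rose and *Zbtb7b* (Tc17 4.53 and 4.34, CTL 4.97 and 5.16) fell, with limma adjusted p of 0.00236 and 0.00923. *Cd68* is a myeloid marker, and another of these, *Csf1r*, was lower without overlap (Tc17 2.75 and 2.78, CTL 3.03 and 3.01) and did not pass. The calls of *Cd8a* and *Zbtb7b* were lost without Tc17 replicate 2 (0.63 and -0.54), that of *Cd8a* also without CTL replicate 1 (0.51) and that of *Zbtb7b* also without CTL replicate 2 (-0.53). The mean log2 level over 8 myeloid markers was 3.03 and 2.89 on the Tc17 arrays and 2.88 and 2.84 on the CTL arrays, and over 5 B cell markers it was 3.32 and 3.36 against 3.34 and 3.08. By their means over the 4 arrays, all 3 NK cell markers, 4 of the 8 myeloid markers (among them *Lyz2* and *Adgre1*) and 1 of the 5 B cell markers (*Ms4a1*) were dimmer than 2.59, the filter below which genes were not tested. The B cell markers *Pax5* (Tc17 3.06 and 3.08, CTL 2.92 and 3.01), *Cd79b* (Tc17 5.14 and 5.02, CTL 4.78 and 4.53) and *Blk* (Tc17 3.15 and 3.34, CTL 2.70 and 2.99) had higher Tc17 arrays without overlap. So had 29.6% of all genes tested, and none of these B cell markers passed. The groups overlapped for *Cd79a* (Tc17 2.90 and 2.85, CTL 3.25 and 2.54) and *Ms4a1* (Tc17 2.37 and 2.53, CTL 3.05 and 2.36). The part of these markers in the results that follow was not tested, and in bulk RNA fewer cells of a type and less RNA per cell cannot be told apart.

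In Tc17 cells the activator *Myc* was lower, the repressors *Mxd4*, *Mxd1* and *Mxd3* were higher, and the repressor *Mga* was lower than in CTLs. The repressors *Mxi1* and *Mnt* did not pass. Of the 10 members, all above the filter on low values, 3 rose and 2 fell at a limma adjusted p under 0.05, taken over all 14953 genes tested. Over all those genes 15.7% passed, 8.22% higher and 7.44% lower in Tc17 cells. The median log2 difference (Tc17 minus CTL) was 0.20 over the members and 0.02 over all genes tested. For 8 of the 10 members the arrays of the groups did not overlap, against 54.4% of all genes tested. Both Tc17 arrays were the higher ones for 6 members (29.6% of all genes tested) and the lower ones for 2 (24.8%), and the 2 that overlapped were *Mycn* and *Mlx*. An exact permutation test of 2 arrays against 2 cannot give a p under 0.333, so the calls rest on the spread that limma shares across genes.

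**Figure D1:**
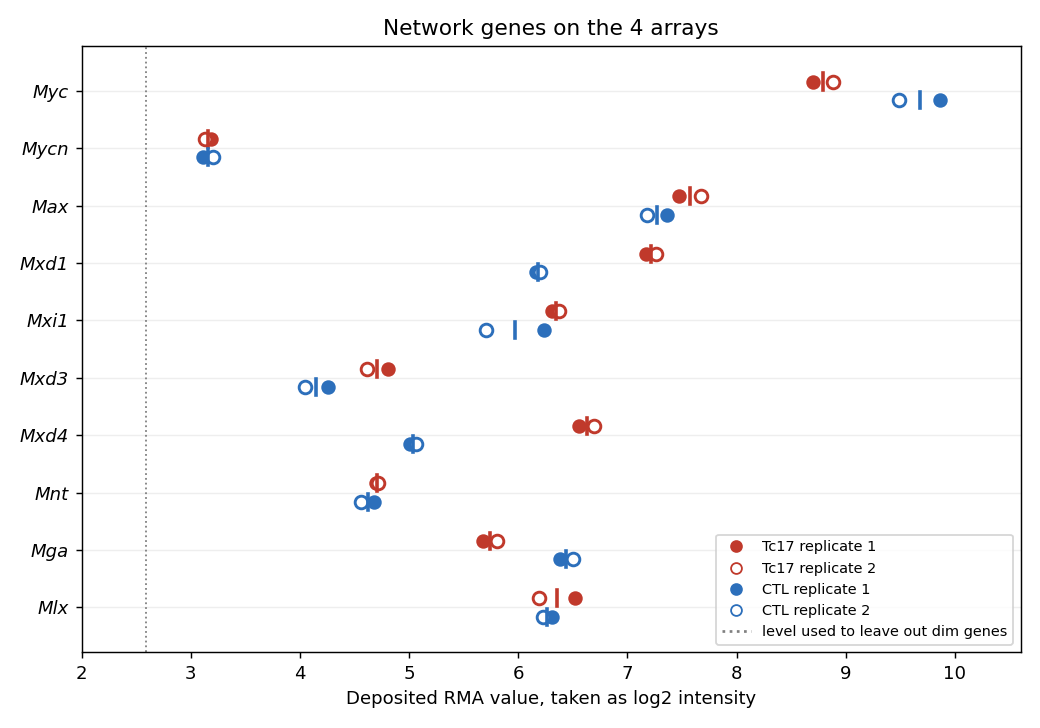
RMA values of the 10 network genes (rows), read as log2 along the horizontal axis. Red circles are Tc17 arrays and blue circles CTL arrays, filled for replicate 1 and open for replicate 2, vertical bars are means of 2 arrays and the dotted line is the filter level of 2.59. Both Tc17 arrays of *Mxd4* (6.56 and 6.69) lie to the right of both CTL arrays (5.01 and 5.07), and both Tc17 arrays of *Myc* (8.70 and 8.89) lie to the left of its CTL arrays (9.86 and 9.49).

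Of the MYC genes, *Myc* stood at 8.70 and 8.89 in Tc17 cells, against 9.86 and 9.49 in CTLs. Every Tc17 array was below every CTL array, with a gap of 0.60 between the nearest arrays, and the CTL replicates differed more from each other than the Tc17 replicates did. The difference was -0.88 ± 0.15 (log2, ± SE, 95% interval -1.22 to -0.54, limma adjusted p = 0.00249), that is 1.84-fold less in Tc17 cells, and 274 of the 14953 genes tested had a decrease of at least this size. *Mycn*, the MYC gene best known from the embryo and the nervous system, was at 3.19 and 3.13 in Tc17 cells and at 3.12 and 3.20 in CTLs. These values lay at the array medians, where background compresses differences, and the groups overlapped (difference -0.0011 ± 0.13, 95% interval -0.28 to 0.28, limma adjusted p = 0.997).

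*Max*, the partner that MYC, the MXD proteins, MNT and MGA share, was at 7.47 and 7.68 in Tc17 cells and at 7.36 and 7.18 in CTLs. The Tc17 arrays were the higher ones, but the nearest arrays were only 0.11 apart. The difference of 0.30 ± 0.14 did not pass (95% interval -1.72e-04 to 0.61, limma adjusted p = 0.185). Its sign was opposite to that of *Myc*, but its interval included no change.

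The MXD repressors differed in size of change. *Mxd4* was at 6.56 and 6.69 in Tc17 cells, against 5.01 and 5.07 in CTLs. It rose 3.01-fold (1.59 ± 0.13, 95% interval 1.31 to 1.87, limma adjusted p = 1.59e-05), and 83 of the genes tested had an increase of at least this size. Replicates of a group lay within 0.13 of each other, far closer than the gap of 1.49 between the groups. *Mxd1*, the founding member of the family and a gene of terminal differentiation in several lineages, was at 7.17 and 7.26 in Tc17 cells, against 6.17 and 6.20 in CTLs. It rose 2.04-fold (1.03 ± 0.13, 95% interval 0.75 to 1.31, limma adjusted p = 2.68e-04), again with a gap (0.97) well above the spread within groups.

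The bases before the start of the 2 repressor genes that rose most are shown because they differ in the motif that the network itself binds. The 250 bases before the annotated transcript start (RefSeq, GRCm38.p6) are written 5′ to 3′ along the gene, with CACGTG in capitals.
*Mxd4* (chr5:34187711-34187960, minus strand): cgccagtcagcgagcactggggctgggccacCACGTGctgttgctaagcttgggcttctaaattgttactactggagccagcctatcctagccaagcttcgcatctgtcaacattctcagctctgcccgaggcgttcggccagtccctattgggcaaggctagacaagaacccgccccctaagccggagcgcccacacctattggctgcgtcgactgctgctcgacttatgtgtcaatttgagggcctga
*Mxd1* (chr6:86669160-86669409, minus strand): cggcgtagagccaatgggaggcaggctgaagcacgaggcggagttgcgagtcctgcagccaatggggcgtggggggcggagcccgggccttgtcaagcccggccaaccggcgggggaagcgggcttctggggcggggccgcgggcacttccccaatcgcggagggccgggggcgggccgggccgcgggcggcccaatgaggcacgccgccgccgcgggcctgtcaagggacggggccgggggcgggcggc
The *Mxd4* bases hold 1 CACGTG, 219 to 214 bases before the start, while those of *Mxd1* hold none.

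*Mxd3*, the MXD gene known from dividing cells in the mouse, was dimmer, at 4.80 and 4.62 in Tc17 cells against 4.26 and 4.04 in CTLs. It rose 1.47-fold (0.56 ± 0.14, limma adjusted p = 0.0185). The groups did not overlap, but the call was lost without Tc17 replicate 1 (0.47) and without CTL replicate 2 (0.45). *Mxi1*, also called Mxd2, was at 6.31 and 6.37 in Tc17 cells and at 6.23 and 5.71 in CTLs. Its Tc17 arrays were nearly equal, and CTL replicate 1 came within 0.08 of them while CTL replicate 2 was well below. The difference of 0.37 ± 0.17 did not pass (limma adjusted p = 0.182), and it was 0.63 without CTL replicate 1, where it passed (limma adjusted p = 0.0296; the alternatives spanned 0.0296 to 0.764), and 0.11 without CTL replicate 2. In order of change the family thus ran *Mxd4*, *Mxd1*, *Mxd3* and *Mxi1*. The 95% intervals of *Mxd4* and *Mxd1* met at 1.31, those of neighbours further down overlapped, and differences between members were not tested.

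Of the other MAX-binding repressors, *Mga* fell and *Mnt* did not pass. *Mga*, the scaffold of PRC1.6, was at 5.67 and 5.81 in Tc17 cells, against 6.38 and 6.51 in CTLs. It fell 1.63-fold (-0.70 ± 0.13, 95% interval -0.99 to -0.41, limma adjusted p = 0.00377), with a gap of 0.57 between the groups. *Mnt*, the repressor found in most cell types, was at 4.70 and 4.71 in Tc17 cells and at 4.68 and 4.56 in CTLs. The groups were only 0.01 apart (difference 0.08 ± 0.13, 95% interval -0.20 to 0.36, limma adjusted p = 0.754). *Mlx* was at 6.52 and 6.19 in Tc17 cells and at 6.30 and 6.22 in CTLs, so that both CTL arrays lay between the Tc17 arrays. Its difference was 0.09 ± 0.14 (95% interval -0.23 to 0.41, limma adjusted p = 0.766), and its sign turned without Tc17 replicate 1 (-0.07).

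**Figure D2:**
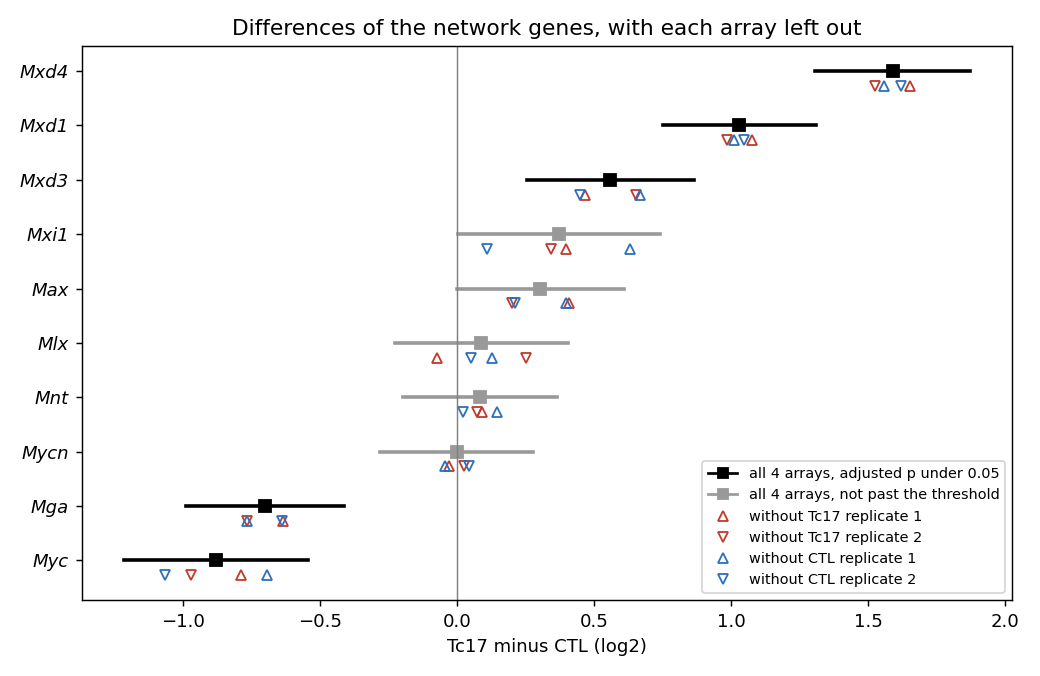
Tc17 minus CTL on the log2 scale (horizontal axis) for the 10 network genes, ordered by size. Squares and bars are limma estimates with 95% intervals (black where the adjusted p was under 0.05), and triangles are the estimates with 1 array left out. *Mxd4* stayed between 1.52 and 1.65 and *Myc* between -1.07 and -0.69 whichever array was left out, while *Mxi1* ranged from 0.11 to 0.63.

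*Mxd4*, *Mxd1*, *Myc* and *Mga* passed with any single array left out. When all 35557 rows were tested in place of 1 per gene, *Mxd4* and *Mxd1* passed and *Myc* (limma adjusted p = 0.0857), *Mga* (0.0719) and *Mxd3* (0.143) did not. Over all 12 alternatives the limma adjusted p ranged from 2.12e-04 to 0.0857 for *Myc*, from 0.00235 to 0.0719 for *Mga* and from 0.0125 to 0.143 for *Mxd3*.

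CACGTG stood in the promoter windows of other members too. A window runs from 250 bases before to 50 bases after an annotated transcript start, which need not be the outer end of the gene. Of the 10 members, 9 had at least 1 window (11 windows in all, 3 of them of *Mxi1*). No window was available for *Myc*, so its promoter was not searched. CACGTG, which reads the same on both strands, was present in 4 of the 9 genes (*Max*, *Mxd4*, *Mnt* and *Mlx*), against 8.09% of all 27025 genes with a window. The variant CACGCG, or CGCGTG on the other strand, was present in *Mga* alone among the 9 and in 10.5% of all genes. The forkhead motif GTAAACA, or TGTTTAC on the other strand, was present in 1 *Mxi1* window and in 4.05% of all genes. The stretches around the E-box matches of *Max*, *Mnt*, *Mlx* and *Mga* are shown for their flanks, 5′ to 3′ along the gene (RefSeq, GRCm38.p6), with the matched bases in capitals.
*Max* (chr12:76962219-76962278, minus strand): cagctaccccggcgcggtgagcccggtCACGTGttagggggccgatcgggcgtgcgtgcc
*Mnt* (chr11:74830774-74830833, plus strand): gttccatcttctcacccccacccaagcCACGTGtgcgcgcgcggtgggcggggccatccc
*Mlx* (chr11:101087223-101087282, plus strand): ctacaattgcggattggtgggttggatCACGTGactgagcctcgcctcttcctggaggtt
*Mga* (chr2:119897180-119897239, plus strand): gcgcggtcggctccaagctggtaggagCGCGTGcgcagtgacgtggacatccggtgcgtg
In *Max* the match lies across the start itself, from 3 bases before to 2 bases after it, in *Mlx* from 40 to 35 and in *Mnt* from 123 to 118 bases before it, and the match of *Mga* runs from 21 to 16 bases before its start. Of the 4 genes with CACGTG, *Mxd4* rose and *Max*, *Mnt* and *Mlx* did not pass. A match says only that these letters are in the window; the share of G and C in these windows, from 55.0% to 76.7%, also sets how often such letters occur.

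**Figure D3:**
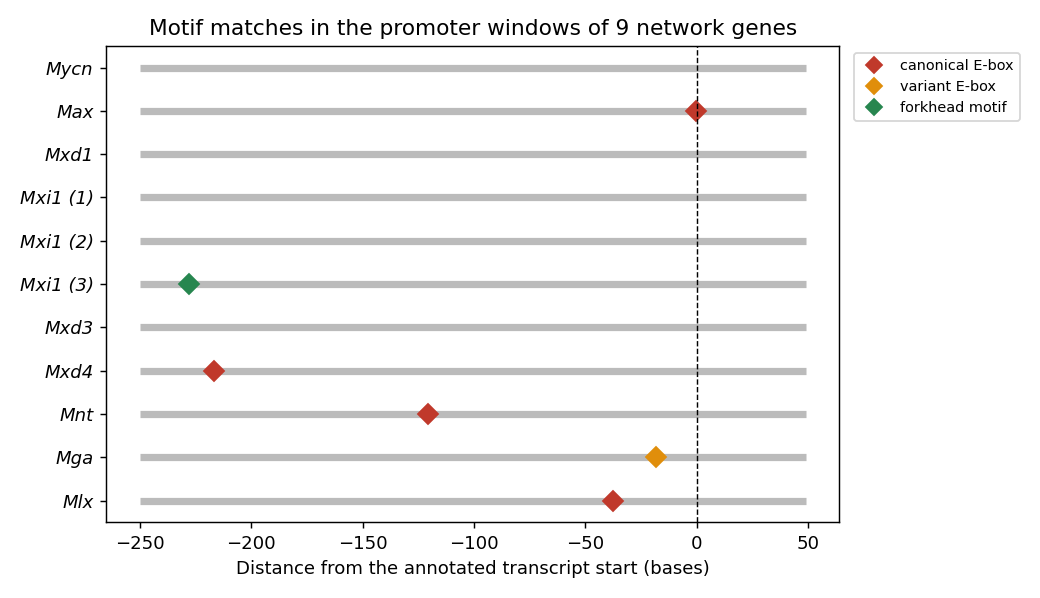
Motif matches (diamonds) in the 11 promoter windows of 9 network genes, by distance in bases from the annotated transcript start (dashed line). Canonical E-boxes, in red, lie in 4 genes, and those of *Max* and *Mlx* are within 40 bases of the start.

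Textbook targets that MYC activates were lower in Tc17 cells. Of 24 such genes 17 fell and none rose, beside 7.44% of all genes falling, and their median difference was -0.64 against 0.02 over all genes tested. The log2 difference was below 0 for all 24, and for all 24 the groups did not overlap, against 24.8% of all genes lying lower without overlap. *Srm*, the spermidine synthase gene (Tc17 8.14 and 8.07, CTL 9.53 and 9.26; -1.29 ± 0.14, limma adjusted p = 1.03e-04), and the nucleolar *Gnl3* (Tc17 6.85 and 6.29, CTL 7.84 and 7.76; -1.23 ± 0.17, limma adjusted p = 6.89e-04) fell most. The 7 that did not pass, named after their values were seen, were *Ldha* of glycolysis (-0.04), *Apex1* of base excision repair (-0.10), the cell cycle kinase gene *Cdk4* (-0.12), *Odc1* of polyamine synthesis (-0.18), the transferrin receptor gene *Tfrc* (-0.22), *Tfap4* (-0.35) and the nucleolar *Fbl* (-0.42). Without Tc17 replicate 2 the count of 17 was 10. Several of the 24 were already known from these arrays to be lower, so the count is not independent evidence.

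Of 8 tested genes that MYC is known to repress, 1 rose and 1 fell, near the shares over all genes (8.22% rising and 7.44% falling). *Cdkn1b*, which encodes the cell cycle inhibitor p27, rose 2.54-fold, with 7.73 and 7.65 in Tc17 cells against 6.24 and 6.46 in CTLs (1.34 ± 0.13, limma adjusted p = 6.47e-05). *Gadd45g*, a stress-induced gene, fell, with 6.77 and 6.76 in Tc17 cells against 7.62 and 7.44 in CTLs (-0.77 ± 0.13, limma adjusted p = 0.00220). *Ndrg1* was at 8.04 and 8.79 in Tc17 cells and at 7.65 and 7.90 in CTLs, and its difference of 0.64 did not pass (limma adjusted p = 0.0664). The size of the *Ndrg1* difference depended on which Tc17 array was kept. It grew to 1.02 when Tc17 replicate 1 was left out and shrank to 0.26 when Tc17 replicate 2 was dropped instead. The median over the 8 genes was 0.12.

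Of the genes through which MYC acts, 3 of 13 tested coactivators fell and none rose (median -0.24), beside 7.44% of all genes falling and 8.22% rising. *Ruvbl1*, an ATPase of the TIP60 and INO80 complexes, was at 7.07 and 7.03 in Tc17 cells against 7.89 and 7.97 in CTLs (-0.88 ± 0.13, limma adjusted p = 7.66e-04). Its partner *Ruvbl2* fell by 0.69, a call lost without Tc17 replicate 2 (-0.56), and *Wdr5*, a subunit of histone H3 methyltransferase complexes that binds MYC, fell by 0.71 (5.62 and 5.79 in Tc17 cells, 6.46 and 6.36 in CTLs, limma adjusted p = 0.00374). Of 14 genes of MYC protein turnover, 1 rose and 2 fell (median -0.05), a share near the 15.7% of all genes that passed in either direction. *Usp28*, a deubiquitinase that counters the ubiquitin ligase FBXW7 on MYC, was at 5.30 and 5.49 in Tc17 cells against 4.53 and 4.53 in CTLs (0.87 ± 0.13, limma adjusted p = 0.00107). The nucleolar deubiquitinase gene *Usp36* fell by 0.64, a call lost without Tc17 replicate 1 (-0.56) and without CTL replicate 1 (-0.49). The ubiquitin ligase gene *Huwe1* fell by 0.50, a call lost without Tc17 replicate 1 (-0.54), Tc17 replicate 2 (-0.45) or CTL replicate 1 (-0.31). That call was also lost without the filter on low values (limma adjusted p = 0.0549) and after cyclic loess (-0.44).

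The repressors work through partner complexes. Of 18 genes of the SIN3 corepressor, 1 rose and 2 fell (median 0.02), a share near the 15.7% of all genes that passed in either direction. *Arid4a*, a SIN3 subunit with an ARID domain, rose by 0.55, a call lost without either Tc17 replicate (0.55 and 0.55) or CTL replicate 2 (0.42). *Sap30* fell by 0.62 and the histone chaperone gene *Rbbp7* by 0.50. Both calls were lost without Tc17 replicate 2 (-0.41 and -0.35), CTL replicate 1 (-0.63 and -0.58) or CTL replicate 2 (-0.61 and -0.43). The call of *Rbbp7* was also lost after cyclic loess (-0.45) and with its probe sets averaged (-0.42). Of 11 further PRC1.6 genes, *Cbx1*, which encodes the heterochromatin protein HP1β, fell by 0.50 (limma adjusted p = 0.0188) and the other 10 did not pass (median -0.12), beside the same 15.7%. That call was lost whichever array was left out (-0.54 to -0.47).

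Germline genes that MAX and MGA hold silent in mouse embryonic stem cells stayed dim in both groups. Of 10 such genes, 8 lay under the filter level of 2.59 and were not tested, among them *Ddx4* and *Dazl*. Of the 2 tested, 1 rose, beside 8.22% of all genes tested. The other, *Tex101*, lay lower without overlap, with 2.56 and 2.61 in Tc17 cells against 2.97 and 2.99 in CTLs. It did not pass (-0.40, limma adjusted p = 0.0543), but fell past the threshold with the trend and robust moderation. *Tdrkh*, a gene of the piRNA pathway, rose, with 3.81 and 3.38 in Tc17 cells against 3.03 and 2.94 in CTLs (0.61 ± 0.15, limma adjusted p = 0.0203). That call was lost without Tc17 replicate 1 (0.40), CTL replicate 1 (0.66) or CTL replicate 2 (0.57). CACGTG was present in the windows of 7 of these 10 genes, against 8.09% of all genes. The list was chosen as genes that MAX and MGA hold silent, so this share is not independent of that choice.

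On the MLX side, *Txnip*, a glucose-responsive target of MLXIP and MLX that restrains glucose uptake, was at 8.12 and 8.42 in Tc17 cells against 7.24 and 7.16 in CTLs. It rose 2.10-fold (1.07 ± 0.14, limma adjusted p = 4.40e-04). *Arrdc4*, another such target, was at 3.31 and 3.27 in Tc17 cells and at 3.62 and 3.17 in CTLs, close to the array medians, and did not pass (limma adjusted p = 0.750). None of *Mycl*, *Bmyc*, *Mlxip* and *Mlxipl* passed. *Mlxip*, which encodes MondoA, was nearest to it, with 5.06 and 4.70 in Tc17 cells and 5.52 and 5.10 in CTLs (-0.43 ± 0.17, limma adjusted p = 0.130). Of 9 tested genes for other basic helix-loop-helix factors that bind CACGTG, 1 rose and none fell (median 0.15), near the shares over all genes (8.22% rising and 7.44% falling). It was *Arntl*, which encodes the clock factor BMAL1, with 5.40 and 5.34 in Tc17 cells against 4.31 and 4.25 in CTLs (1.09 ± 0.13, limma adjusted p = 1.87e-04).

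**Figure D4:**
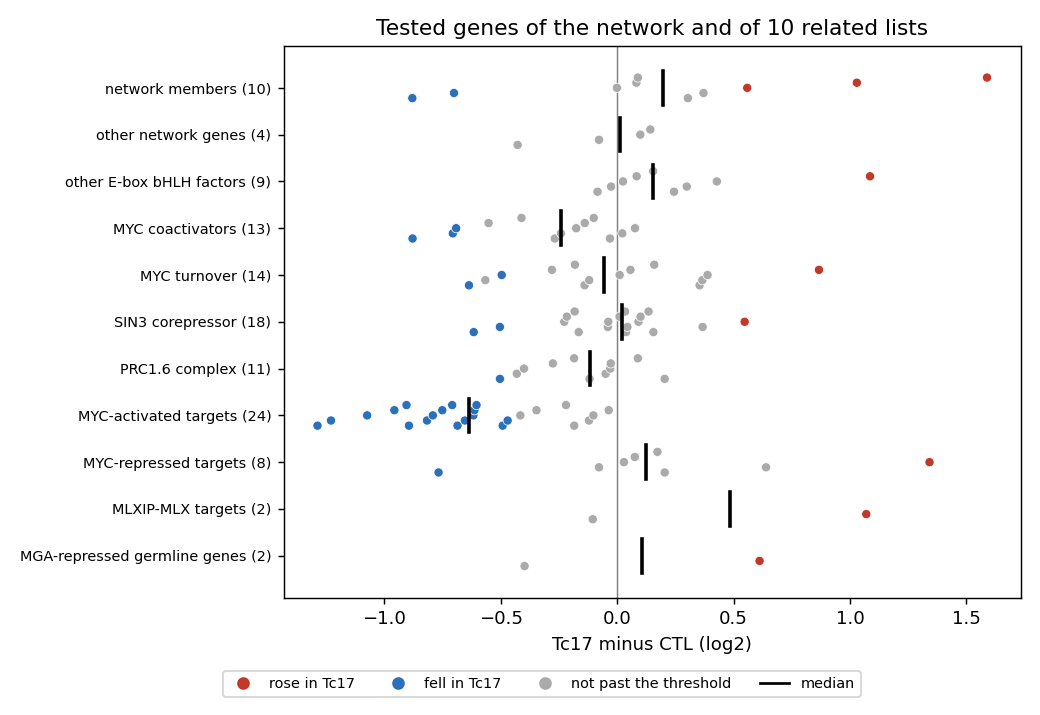
Each point is a tested gene of the network or of 10 related lists, placed by Tc17 minus CTL on the log2 scale (horizontal axis), with the number tested in parentheses. Genes past the limma threshold are red where they rose and blue where they fell, the others are grey, and a black bar marks each median. The median of the MYC-activated targets was -0.64 and those of the other lists of more than 2 genes lay between -0.24 and 0.20.

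Predicted genes and clones were left out of a search by the Euclidean distance between values centred on each gene's mean. It gave the tested genes nearest to *Myc* and to *Mxd4* in their pattern over the 4 arrays. For *Myc* these were the lipase gene *Lipg* (distance 0.04), the nucleolar *Nolc1* (0.07), the histone methyltransferase gene *Dot1l* (0.07), *Gpd2* of the mitochondrial glycerol phosphate shuttle (0.07) and *Nlrc5*, the activator of MHC class I genes (0.08). Their differences lay between -0.91 and -0.82. For *Mxd4* they were *Il7r* (0.07), *Il17ra* (0.10), the mitochondrial *Dmac2* (0.11), the lysosomal protease gene *Ctsa* (0.12) and *Bcl3*, a nuclear member of the IκB family (0.13), with differences between 1.57 and 1.68. With 4 arrays in 2 groups, genes whose differences are alike lie close together by this measure.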

How the data were processed

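RNA of 2 Tc17 and 2 CTL samples was amplified in 2 cycles, labelled with biotin and hybridised to whole-transcript arrays, each sample to its own. The deposited values were on a log scale, read here as log2, and were made by the authors with RMA (background correction, quantile normalisation and summary per probe set). Neither the RMA version nor its log base is stated in the sources, and the range of 1.18 to 13.70 is that of log2 intensities. Quantile normalisation hides a shift of all transcripts, and background compresses the differences of dim genes. Detection calls were not used here, and the number of arrays limits the precision.

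Of 35557 rows, 21789 carried 1 gene symbol, 1621 several and 12147 none in the platform annotation, and gene identifiers of 21698 rows matched RefSeq (GRCm38.p6). Each of 19938 genes was read from its probe set of highest mean, and 4985 genes with a mean under the 25th percentile (2.59) were left out. Tc17 was compared with CTL over 14953 genes with limma 3.58.1 in R 4.3.3 (lmFit, then eBayes), two-sided and unpaired. P-values were adjusted by Benjamini-Hochberg and called under 0.05, and the fit was tested on simulated data. The labels do not say that replicates came from separate animals, so p-values reflect only how these samples vary. Differences are Tc17 minus CTL ± SE from the fit, and levels are given per array or as mean ± SD.

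Promoter windows came from RefSeq, and motifs were sought on both strands with Python 3.11.15 and pandas 2.3.3. All 10 members were named, and from each other list the 2 genes that rose most and the 2 that fell most past the threshold, or the gene with the smallest p. *Ndrg1*, *Ruvbl2*, *Tex101* and the MYC-activated targets that did not pass were named outside this rule, after their values were seen. The members and lists were chosen with earlier results of these data known. The fit was repeated with other filters, with a trend and robust moderation, after cyclic loess or median centring, on averaged probe sets, on all rows, with a replicate block and without each array in turn. Some genes of the lists are not reported here.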

Additional observations from a re-analysis of the deposited data

How the results depend on the processing

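The count of 5 network genes past the threshold was 5 under every alternative except the test of all rows, where it was 2, and the fits without 1 array, where it lay between 4 and 6. The count of 2342 over all genes was 684 in the test of all rows and between 1421 and 1924 without 1 array, the lowest without Tc17 replicate 2, and 1538 without CTL replicate 1. For the MYC-activated targets the count of 17 was 3 in the test of all rows and between 10 and 16 without 1 array. That test had no filter, adjusted over more rows and had other moderated errors (SE of *Myc* 0.168, against 0.153), and which of these lowered the counts was not tested. *Gnl3*, *Wdr5*, *Gadd45g* and *Cd68* were among the genes that lost their call there. Signs turned for the dim *Mycn* (between -0.045 and 0.042 without 1 array) and for *Mlx* (between -0.074 and 0.25). Deviations from the group means correlated at 0.02 between same-numbered arrays. The values thus showed no pairing by replicate number, and the labels do not say whether same-numbered samples shared animals. With the replicate number as a block, 2322 genes, 5 network genes and 16 MYC-activated targets passed. No network gene had a second probe set, so the planned fit of a further probe set on its own could not be made. Where an array was left out, the remaining one of its group was assumed to vary like the other group. For *Mycn*, *Arrdc4* and the germline genes, signal near background limits what could be seen.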
